A study of Homo sapiens with 18 samples.

Results

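MTRNR2L12, MTRNR2L8 and MTCO1P12 are stretches of the nuclear genome that resemble genes of the mitochondrial genome. They were taken by their Ensembl transcript identifiers (ENST00000600213.3, ENST00000536684.3 and ENST00000414273.1), and all 3 were found among the 35246 transcripts of the deposited expression table. They were selected on their CPM values in the comparison of UT-143 with vehicle, so that comparison is given as a description of the 3 copies, with no test. The data come from bulk RNA sequencing of 22RV1, an established human prostate cancer line. The cells were grown in medium with fetal bovine serum. They were given either the solvent DMSO (vehicle, 3 libraries) or 10 µM UT-143 (3 libraries), for 20 to 24 hours in both groups. UT-143 is the compound under study, a covalent inhibitor by the title of the series. All libraries come from 1 cell line, and the labels do not say whether the numbered samples of a group came from separate cultures, so the spread between them may be technical. The 12 ATAC-seq samples of the series were not analysed here.

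Fragments of mitochondrial DNA have been inserted into human chromosomes many times during evolution, and the inserted pieces are known as nuclear mitochondrial segments. The MTRNR2L genes resemble MT-RNR2, the mitochondrial 16S ribosomal RNA gene. That gene holds a short reading frame for humanin, a peptide known for protecting cells from apoptosis, and the MTRNR2L copies hold frames for humanin-like peptides. MTCO1P12 is a pseudogene copy of MT-CO1, which encodes the catalytic subunit of cytochrome c oxidase, the last enzyme complex of the respiratory chain. Mitochondrial transcripts are abundant, and a short read from one of them can match a copy in the nucleus as well. How the authors treated reads that match both places is not given in the sources used here. A value for a copy can therefore hold reads from the mitochondrial genome, and how much was not tested.

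In the RefSeq annotation of GRCh38.p14, which is the hg38 build named in the submitters' processing notes, all 3 copies are annotated as pseudogenes. MTRNR2L12 lies at chr3:96617186-96618223 and spans 1038 bases. It overlaps no other gene of the table, and its nearest neighbours are the pseudogenes RNU6-1094P and RPL18AP8. MTRNR2L8 lies at chr11:10507887-10509176 and spans 1290 bases, between the protein-coding genes AMPD3, which ends 307 bases before it, and RNF141, which begins after a gap of 2496 bases. MTCO1P12 lies at chr1:631074-632616 and spans 1543 bases, against 1542 for MT-CO1 (COX1 in RefSeq). It falls within the span of the annotated protein-coding locus LOC102724250, and the table used does not divide that span into exons and introns. RefSeq lists 13 MTRNR2L genes on 12 chromosomes and 58 MTCO1P pseudogenes on 20 chromosomes, of which 2 and 1 are described here.

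MicroRNA genes are annotated at 2 of the loci. Their precursors are shown because the sequence at these places is annotated in RefSeq as a microRNA gene too, so a read from there can be given more than 1 name. All 57 bases of the MIR4485 precursor (chr11:10508270-10508326, minus strand) lie inside MTRNR2L8. The MIR12136 precursor (chr1:632615-632685, minus strand) overlaps MTCO1P12 by 2 bases at its higher-coordinate end, and the remaining bases fill part of the 140-base gap to the next copy, MTCO2P12. Both are written 5′ to 3′ as RNA from RefSeq, with the mature microRNA in capitals.
MIR4485 precursor: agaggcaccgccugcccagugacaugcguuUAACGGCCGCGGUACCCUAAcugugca
MIR12136 precursor: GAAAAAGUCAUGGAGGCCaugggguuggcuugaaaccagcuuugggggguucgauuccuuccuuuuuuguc
The mature hsa-miR-4485-3p is 20 bases long, and no other of the 2370 mature microRNA names in the RefSeq table shares its seed, bases 2 to 8. The same holds for the 18-base hsa-miR-12136. MicroRNA levels were not analysed here.

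Values are CPM, in which the reads of a transcript are divided by those of its library and multiplied by a fixed constant. The authors rounded them to whole numbers, so 1 CPM is the smallest step, and the number of reads behind a value is unknown. The rounding is small here, at most 0.0346% of the lowest value of any of the 3 copies. Per library, the table's values added up to 889253 to 923170 CPM. UT-143 replicate 3 stood apart: over all transcripts its log2(CPM + 1) values correlated at 0.816 to 0.895 with the other 5 libraries, which correlated at 0.953 to 0.993 with each other, and 6674 of its transcripts were at or under 5 CPM, where the others had 2049 to 2868. The differences between groups below are also given without it. The prostate markers FOXA1, HOXB13, KRT18 and KLK3 were listed in every library, KLK3 (prostate-specific antigen) at only 7 to 11 CPM. The fibroblast marker COL1A1 was listed at 7 to 10 CPM, and the leukocyte marker PTPRC was not analysed here.

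MTRNR2L12, the copy of the 16S gene on chromosome 3, was measured at 6210, 6966 and 7842 CPM in vehicle replicates 1 to 3. It was measured at 8034, 9006 and 5289 CPM in UT-143 replicates 1 to 3. The 2 highest values and the lowest value of the 6 were all from UT-143 libraries, so the groups overlapped. The means were 7006 ± 817 CPM (SD, n = 3) in vehicle and 7443 ± 1928 CPM (SD, n = 3) after UT-143. The difference between group means was 0.058 on the log2(CPM + 1) scale with a standard error of 0.24 from limma. The difference was smaller than the spread within either group.

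MTRNR2L8, the copy on chromosome 11, was measured at 1445, 1505 and 1875 CPM in vehicle replicates 1 to 3 and at 1852, 2015 and 1462 CPM in UT-143 replicates 1 to 3. Again UT-143 replicate 2 was the highest library, and UT-143 replicate 3 lay between vehicle replicates 1 and 2. The means were 1608 ± 233 CPM in vehicle and 1776 ± 284 CPM after UT-143 (SD, n = 3 each), a difference of 0.14 on the log2(CPM + 1) scale with a standard error of 0.18.

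MTCO1P12, the copy of the cytochrome c oxidase gene, was measured at 1921, 1948 and 2475 CPM in vehicle replicates 1 to 3 and at 2423, 2416 and 1786 CPM in UT-143 replicates 1 to 3. Here vehicle replicate 3 was the highest library and UT-143 replicate 3 the lowest, and the groups overlapped. The means were 2115 ± 312 CPM in vehicle and 2208 ± 366 CPM after UT-143 (SD, n = 3 each), a difference of 0.058 on the log2(CPM + 1) scale with a standard error of 0.18. The authors' deposited table gives ratios of UT-143 to vehicle means of 1.06 for MTRNR2L12, 1.10 for MTRNR2L8 and 1.04 for MTCO1P12.

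**Figure D1:**
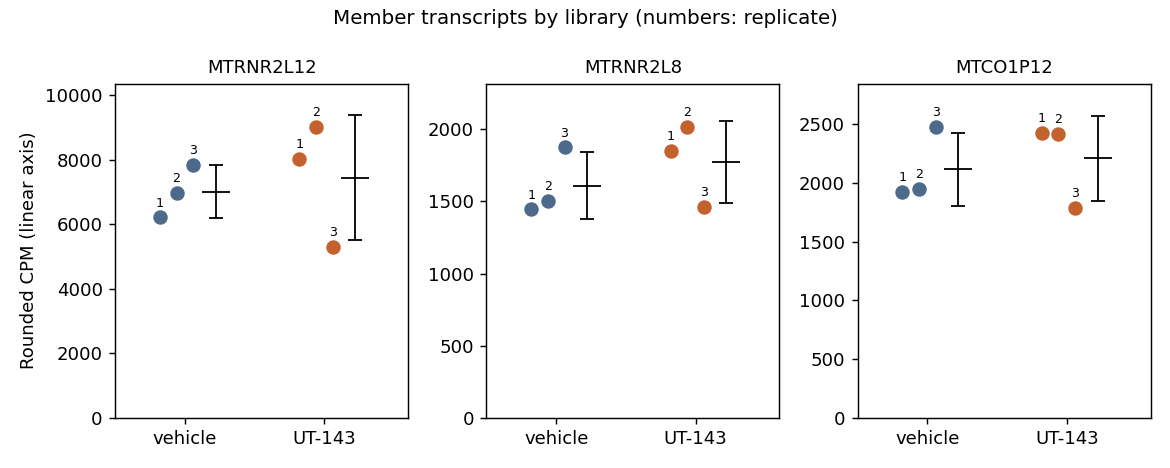
Rounded CPM (linear axes from 0) of MTRNR2L12, MTRNR2L8 and MTCO1P12 in the 3 vehicle and 3 UT-143 libraries, with replicate numbers, and the mean ± SD of each group as a black bar. In every panel the groups overlap, vehicle replicate 3 is the highest vehicle library and UT-143 replicate 3 the lowest UT-143 library.

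None of the 3 copies had all UT-143 values on one side of all vehicle values. Over the whole table, the UT-143 group lay entirely above the vehicle group in 13.1% of transcripts and entirely below it in 22.3%. Without UT-143 replicate 3, the 2 remaining UT-143 values of MTRNR2L12 lay above all 3 vehicle values, while MTRNR2L8 and MTCO1P12 still overlapped. With those 5 libraries 20.7% of all transcripts were entirely above and 27.0% entirely below. The 5-library differences were 0.29 for MTRNR2L12, 0.27 for MTRNR2L8 and 0.20 for MTCO1P12 on the log2(CPM + 1) scale, with standard errors of 0.13, 0.14 and 0.14. Because the copies were chosen with this contrast known, nothing is read from these shares. The direction rested on single libraries for 2 of the 3. For MTRNR2L12 the difference was -0.026 without vehicle replicate 1, -0.015 without UT-143 replicate 1 and -0.097 without UT-143 replicate 2. It was 0.14 without vehicle replicate 3. For MTCO1P12 it was -0.0060, -0.016 and -0.014 without vehicle replicate 1, UT-143 replicate 1 and UT-143 replicate 2, 0.0041 without vehicle replicate 2 and 0.18 without vehicle replicate 3. MTRNR2L8 kept a positive difference in every fit that left out 1 library, from 0.043 without UT-143 replicate 2 to 0.27 without UT-143 replicate 3, with 0.068 without vehicle replicate 1 and 0.26 without vehicle replicate 3. Under quantile normalization its difference was -0.22 and that of MTRNR2L12 -0.15.

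The 3 copies varied together across libraries. In all 3, vehicle replicate 3 was the highest vehicle library, by 1.19 times (MTRNR2L12), 1.27 times (MTRNR2L8) and 1.28 times (MTCO1P12) over the mean of vehicle replicates 1 and 2. The median transcript of the table stood at 0.981 times on the same measure, and the 95th percentile of all transcripts was 1.2. Among the 983 transcripts averaging 100 CPM or more in vehicle the median was 1.03 and the 95th percentile 1.25, so MTRNR2L12 lay below that percentile and the other two above it. In all 3, UT-143 replicate 3 was the lowest UT-143 library, at 62.1% of the mean of UT-143 replicates 1 and 2 for MTRNR2L12, 75.6% for MTRNR2L8 and 73.8% for MTCO1P12. Over all transcripts, vehicle replicate 3 was the highest vehicle library in 20.8% and UT-143 replicate 3 the lowest UT-143 library in 51.6%. In log2 terms, set against the average of its group's other libraries, UT-143 replicate 3 had a median of 0.260 among the 983 transcripts. Their 5th percentile was -0.695. On that scale MTRNR2L12 was at -0.688, just above this percentile, MTRNR2L8 at -0.403 and MTCO1P12 at -0.438. All 3 copies were therefore lower in a library where the median of these 983 transcripts was higher. Over all transcripts the median of the same measure was -0.128 and the 5th percentile -1.22. Against that background the copies lay below the median and well above the percentile. The coefficient of variation among vehicle libraries was 11.7% for MTRNR2L12, 14.5% for MTRNR2L8 and 14.8% for MTCO1P12. Of the same 983 transcripts, 82.1%, 94.1% and 95.2% had a lower one.

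Ratios between the copies varied less than their levels in 5 of the 6 libraries. MTRNR2L8 was 23.3%, 21.6% and 23.9% of MTRNR2L12 in vehicle replicates 1 to 3 and 23.1%, 22.4% and 27.6% in UT-143 replicates 1 to 3. Only UT-143 replicate 3 lay outside the vehicle range. MTCO1P12 was 30.9%, 28.0% and 31.6% of MTRNR2L12 in vehicle and 30.2%, 26.8% and 33.8% after UT-143, where replicate 3 was again the highest of all libraries. Per kilobase of RefSeq span, the vehicle levels were 6749.5 ± 787 CPM per kb for MTRNR2L12, 1370.5 ± 202 for MTCO1P12 and 1247 ± 181 for MTRNR2L8 (SD, n = 3 each). MTRNR2L12 was above both others in every vehicle library, and MTCO1P12 was above MTRNR2L8 in every vehicle library. Across libraries the vehicle ranges of MTCO1P12 (1245 to 1604 CPM per kb) and MTRNR2L8 (1120.2 to 1453 CPM per kb) overlapped. The length of the counted transcripts is not given in the sources used here, so these figures depend on the RefSeq spans.

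The copies were then set beside the mRNAs of the mitochondrial genome itself. Human mitochondrial DNA encodes 13 proteins, all of them subunits of the respiratory chain or ATP synthase, and the table holds all 13 mRNAs. The gene names of these rows come from knowledge of the Ensembl identifiers, since no table used here pairs them. MT-RNR1 and MT-RNR2, the ribosomal RNAs of the mitochondrion, were not analysed here, so the MTRNR2L copies could not be set against the gene they resemble. Copies and mitochondrial mRNAs may share reads, and therefore are not independent of each other.

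The summed level of the 3 copies kept nearly the same proportion to the summed level of the 13 mitochondrial mRNAs in all 6 libraries. The copies summed to 9576, 10419 and 12192 CPM in vehicle replicates 1 to 3 and to 12309, 13437 and 8537 CPM in UT-143 replicates 1 to 3. The highest sum was 1.57 times the lowest. The 13 mRNAs summed to 56485, 60690.0 and 72511 CPM in vehicle and to 70501, 76853 and 51451 CPM after UT-143, from 5.57% to 8.54% of the listed total of a library. The highest of these sums was 1.49 times the lowest. Expressed as a percentage of the 13 mRNAs, the copies were at 17.0%, 17.2% and 16.8% in vehicle and at 17.5%, 17.5% and 16.6% after UT-143, where the highest was 1.05 times the lowest. The group means of this proportion were 17.0% ± 0.18 in vehicle and 17.2% ± 0.51 after UT-143 (SD, n = 3 each), and the groups overlapped. In bulk RNA, these shares do not give an amount of RNA per cell, because they also depend on the other transcripts they are divided by.

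By single copy, MTRNR2L12 was 10.3% to 11.7% of the 13-mRNA sum over the 6 libraries, MTRNR2L8 2.48% to 2.84% and MTCO1P12 3.14% to 3.47%. The groups overlapped for MTRNR2L12 and MTCO1P12. For MTRNR2L8 they did not, at 2.56%, 2.48% and 2.59% in vehicle and 2.63%, 2.62% and 2.84% after UT-143. How often such a ratio separates the groups over all transcripts was not computed, and the copies were chosen with this contrast known, so nothing is read from it. UT-143 replicate 3 held the lowest share of the 6 libraries for MTRNR2L12 and the highest for MTRNR2L8 and MTCO1P12.

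**Figure D2:**
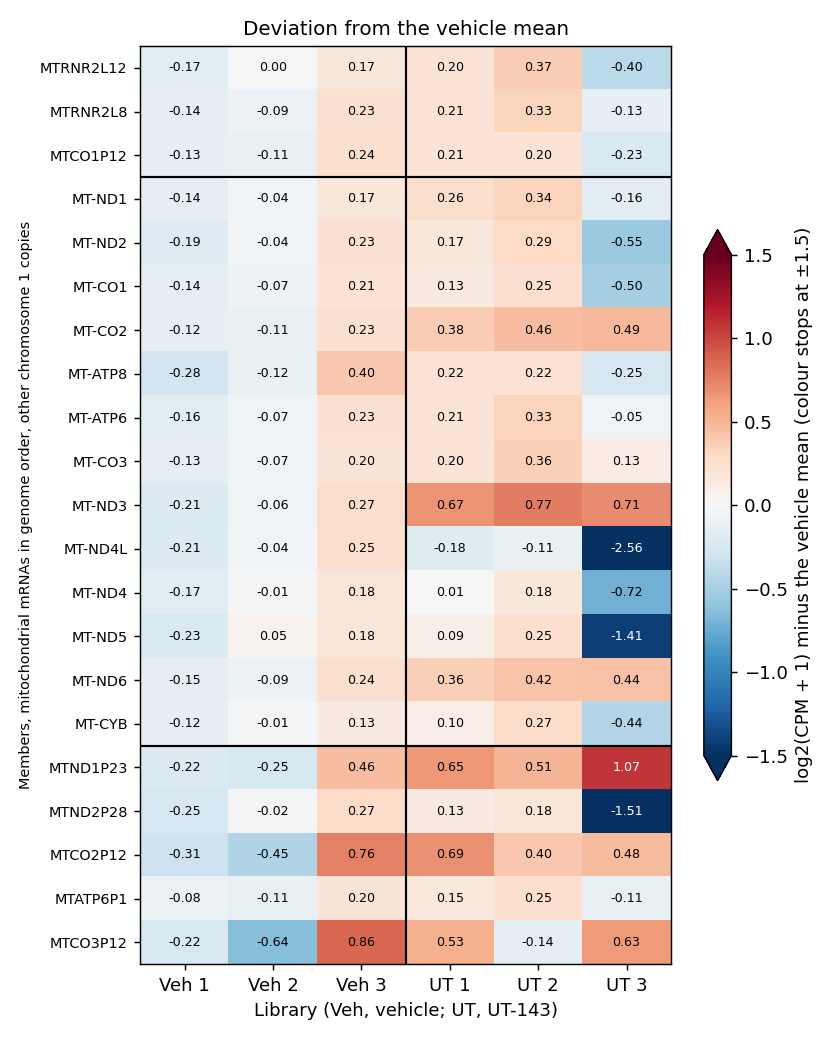
Difference of log2(CPM + 1) from the vehicle mean of the same transcript, printed in each cell, for the 3 copies (top), the 13 mitochondrial mRNAs in the order of the mitochondrial genome (middle) and 5 other chromosome 1 copies (bottom), by library. Vehicle replicate 3 is above the vehicle mean in every row, and UT-143 replicate 3 ranges from -2.56 for MT-ND4L to 1.07 for MTND1P23.

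Of the 13 mitochondrial mRNAs, 0 were called higher and 0 lower after UT-143 by limma at an adjusted p under 0.05, where the same fit called 1.29% of all transcripts higher and 2.08% lower. At an unadjusted p under 0.05 there were 3, MT-ND3, MT-ND6 and MT-CO2, and in these 3 alone of the 13 the UT-143 group lay entirely above the vehicle group. Over all transcripts, 26.4% had an unadjusted p under 0.05 and 13.1% lay entirely above. Without UT-143 replicate 3, 5 of the 13 lay entirely above, beside 20.7% of all transcripts. The closest to the threshold was MT-ND3, a small subunit of complex I (NADH dehydrogenase), with 593 ± 103 CPM in vehicle and 967 ± 35 CPM after UT-143 (SD, n = 3 each) and a difference of 0.72 on the log2 scale (limma, adjusted p = 0.058, higher in 3 of 3 UT-143 libraries). Without UT-143 replicate 3 its difference was again 0.72 (limma, adjusted p = 0.050, just over the threshold). The median difference over the 13 mRNAs was 0.062, beside -0.058 over all transcripts tested, and ran from -0.95 for MT-ND4L to 0.72 for MT-ND3. MTRNR2L12 and MTCO1P12, at 0.058 each, and MTRNR2L8, at 0.14, differed from that median by less than their standard errors (0.24, 0.18 and 0.18). MT-CO1, the parent of MTCO1P12, was at -0.040 with a standard error of 0.25. With all 6 libraries 7 of the 13 differences were positive and 6 negative, beside 15300 positive of the 35246 transcripts. Without UT-143 replicate 3 the median of the 13 was 0.23 and 12 of the 13 differences were positive, beside 16715 of the 35246 transcripts. There limma called 0 of the 13, against 8.65% of all transcripts called higher and 14.6% called lower. In that fit 2 of the 13 had an unadjusted p under 0.05, against 41.4% of all transcripts. The median was -0.080 without vehicle replicate 1, -0.016 without UT-143 replicate 1, -0.017 without UT-143 replicate 2, 0.0039 without vehicle replicate 2 and 0.23 without vehicle replicate 3.

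UT-143 replicate 3 lay below both other UT-143 libraries in 10 of the 13 mitochondrial mRNAs and in all 3 copies. As a percentage of the average of the other 2 UT-143 libraries, its mitochondrial mRNAs ranged from 18.6% for MT-ND4L to 104.6% for MT-CO2, with a median of 72.0%. The copies (62.1% to 75.6%) fell within that range. MT-ND4L, a complex I subunit whose mRNA is shared with MT-ND4, was at 191 CPM in that library against 979 to 1341 CPM in the other 5. MT-ND5, another complex I subunit, was at 1479 CPM against 3360.0 to 4694 CPM. In contrast MT-ND6, the only mRNA transcribed from the light strand of mitochondrial DNA, was at 2123 CPM there, above its 2009 and 2103 CPM in UT-143 replicates 1 and 2. This was not particular to MT-ND6, since MT-CO2 was at 8646 CPM there, above its 8037 and 8501 CPM. MT-ND3 was at 961 CPM, between its 935 and 1004 CPM.

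Likeness of pattern was measured as Pearson's r of log2(CPM + 1) over the 6 libraries against the 35182 other transcripts that vary and average 5 CPM or more. With 6 libraries, shared totals and rounded values, many transcripts reach a high r by this measure: 474 had an r of at least 0.9 with MTRNR2L12, 99 with MTRNR2L8 and 188 with MTCO1P12. For MTRNR2L12 the most alike was ENST00000394196.9 (r = 0.993, 24 to 31 CPM), which no table names. The second was MT-CYB, the cytochrome b of complex III (r = 0.984), the fourth MT-ND2 (r = 0.982) and the 14th MT-CO1 (r = 0.971). For MTRNR2L8 the next after an unnamed transcript were MT-ATP6, the proton channel subunit of ATP synthase (r = 0.989), and its chromosome 1 copy MTATP6P1 (r = 0.988), and the fourth was MT-ND1 (r = 0.979). For MTCO1P12 the most alike was ENST00000370963.9 (r = 0.998, 11 to 15 CPM), also unnamed. The nearest mitochondrial mRNA to MTCO1P12 was MT-ATP8 (r = 0.964, place 32), and its parent MT-CO1 stood at place 97 (r = 0.931). Between the copies themselves r was 0.908 for MTRNR2L12 with MTRNR2L8, 0.917 for MTRNR2L12 with MTCO1P12 and 0.956 for MTRNR2L8 with MTCO1P12. The mitochondrial mRNAs least like the copies were MT-CO2 for MTRNR2L12 (r = 0.197) and MTCO1P12 (r = 0.357) and MT-ND4L for MTRNR2L8 (r = 0.494). Without UT-143 replicate 3, a choice made after seeing the data, r with MT-CO2 was 0.945 for MTRNR2L12 and 0.930 for MTCO1P12, so the low values with MT-CO2 rested on that library. The low value with MT-ND4L did not. Without that library, r with MT-ND4L was 0.315 for MTRNR2L8, 0.227 for MTRNR2L12 and 0.411 for MTCO1P12. Between the copies r was then 0.964, 0.874 and 0.963 in the same order, and 0.964 for MTCO1P12 with MT-CO1. The places in the order were not computed for these 5 libraries. All r values are descriptions of these libraries.

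MTCO1P12 can be set against its parent directly, because both span nearly the same length. In vehicle replicates 1 to 3 MT-CO1 was at 16115, 16879 and 20479 CPM, and in UT-143 replicates 1 to 3 at 19436, 21046 and 12518 CPM. The copy was 11.9%, 11.5% and 12.1% of its parent in vehicle and 12.5%, 11.5% and 14.3% after UT-143. The means were 11.8% ± 0.28 and 12.7% ± 1.4 (SD, n = 3 each). The ratio stayed between 11.5% and 12.5% in 5 libraries, and UT-143 replicate 3 was above them, since MT-CO1 was at 61.8% of the mean of the other UT-143 libraries there and MTCO1P12 at 73.8%.

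MTCO1P12 belongs to a block of 7 neighbouring copies on chromosome 1 (chr1:629062-634922) that follow the order of MT-ND1, MT-ND2, MT-CO1, MT-CO2, MT-ATP8, MT-ATP6 and MT-CO3 in the mitochondrial genome. The start of MTCO1P12 lies 1434 bases after the start of MTND2P28, and the parents are spaced by 1434 bases as well. The copy of MT-ATP8 was not analysed here. Levels along the block differed widely. Per kilobase of span, the vehicle level was 155 ± 46 CPM per kb for MTND1P23 and 1035 ± 189 for MTND2P28. It was 1370.5 ± 202 for MTCO1P12 and 1724 ± 209 for MTATP6P1 (SD, n = 3 each). MTCO2P12 and MTCO3P12, whose spans lie between and beside these, were at 20.0 ± 11 and 36.0 ± 21 CPM per kb. MTATP6P1 was above MTCO1P12 in every vehicle library, though across libraries their ranges (1587 to 1965 and 1245 to 1604 CPM per kb) overlapped. The vehicle range of MTND2P28 (861 to 1236 CPM per kb) ended just under the lowest value of MTCO1P12.

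**Figure D3:**
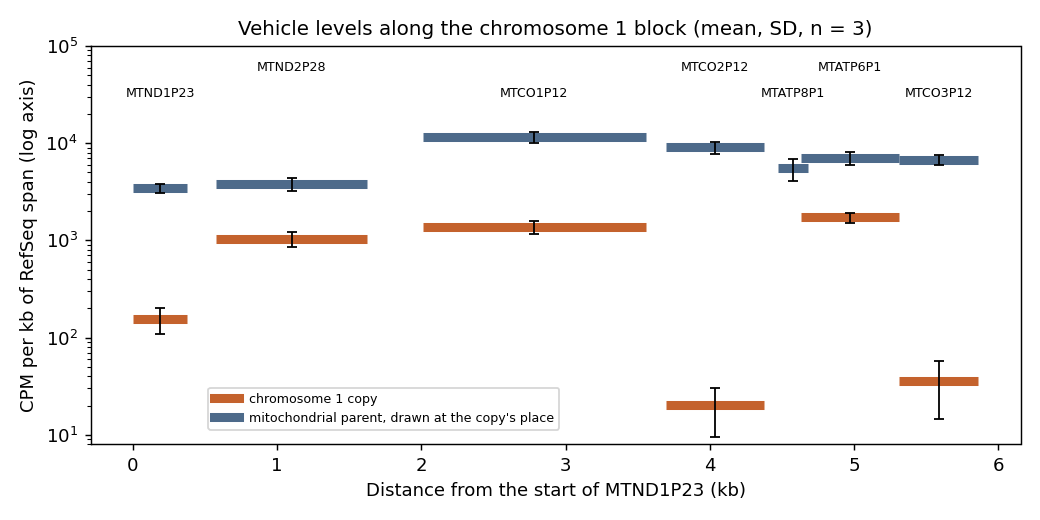
Mean vehicle CPM per kb of RefSeq span (log axis, SD bars, n = 3) of 6 chromosome 1 copies (orange) and their 7 mitochondrial parents (blue), against the distance from the start of MTND1P23. MTND2P28, MTCO1P12 and MTATP6P1 lie at 1035 to 1724 CPM per kb, and MTCO2P12 and MTCO3P12 at 20.0 and 36.0.

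The parents varied less along the block, from 3422 ± 379 CPM per kb for MT-ND1 to 11559 ± 1511 for MT-CO1 in vehicle. Per length, the copy was 27.3% ± 1.0 of its parent for MTND2P28, 24.5% ± 1.2 for MTATP6P1 and 11.8% ± 0.28 for MTCO1P12 in vehicle (SD, n = 3 each). It was 4.47% ± 0.85 for MTND1P23, 0.514% ± 0.24 for MTCO3P12 and 0.213% ± 0.079 for MTCO2P12. How the sequence of each copy differs from its parent was not analysed here.

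Across libraries the copy-to-parent ratio moved little for MTATP6P1, which stayed between 23.1% and 25.9% of MT-ATP6 in all 6. MTCO1P12 and MTND2P28 did so in 5 libraries and moved in opposite directions in UT-143 replicate 3. There MTND2P28 was at 14.1% of MT-ND2, against 25.3% to 28.3% in the other 5, while MTCO1P12 was at 14.3% of MT-CO1, against 11.5% to 12.5%. MTND2P28 itself was at 376 CPM in that library and at 901 to 1294 CPM in the others. Of the 5 other copies of the block, 0 were called higher and 0 lower by limma at an adjusted p under 0.05, against 1.29% and 2.08% of all transcripts. At an unadjusted p under 0.05 there was 1, MTND1P23, against 26.4% of all transcripts. These 5 had a median difference of 0.34, beside -0.058 over all transcripts, and of 0.20 without UT-143 replicate 3, beside -0.018. The value of 0.34 is that of MTCO3P12, with a standard error of 0.42 and a level of only 11 to 33 CPM. The differences ran from -0.40 for MTND2P28 to 0.74 for MTND1P23, with 0.097 for MTATP6P1. Of the 5 differences, 4 were positive, beside 15300 of the 35246 transcripts.

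**Figure D4:**
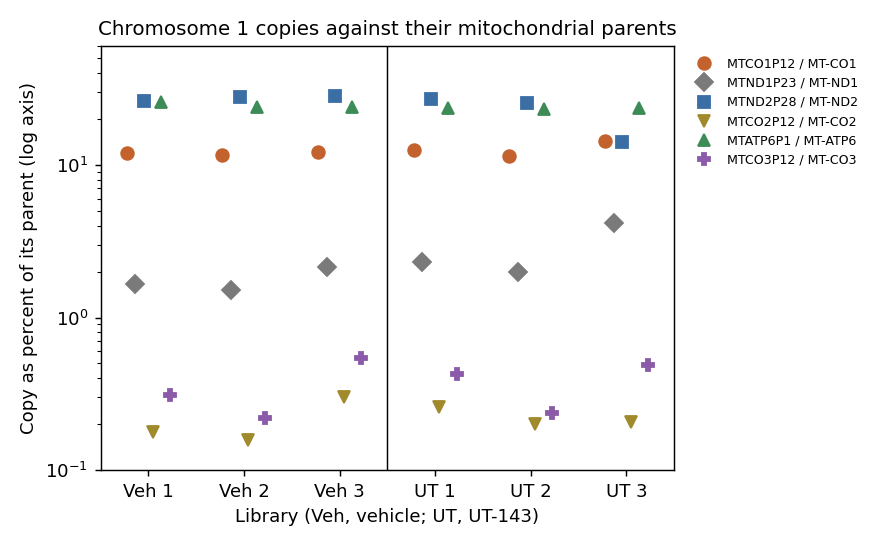
Level of each chromosome 1 copy as a percentage of its mitochondrial parent (log axis, not corrected for length), by library. MTATP6P1 stays between 23.1% and 25.9%, and in UT-143 replicate 3 MTCO1P12 (14.3%) and MTND2P28 (14.1%) meet from opposite sides.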

How the data were processed

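The authors deposited 1 table of RNA sequencing values for 6 libraries of 22RV1 cells, 35246 Ensembl transcripts by library. Its name calls the values CPM, and they are whole numbers, so they were treated as a normalized score rounded by the authors, not as counts. Build hg38 and the tools STAR 2.7.10a, HOMER and FastQC are listed, without roles, in the submitters' processing notes. The deposited ratio of group means is printed for the 3 copies. The deposited p-value was not used.

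The 3 copies and the lists were chosen with earlier results of these data known. No gene table matched the transcript identifiers (0 of 35246). The names of the 3 copies came with the choice of them, and those of mitochondrial, chromosome 1 and marker transcripts from knowledge of their Ensembl identifiers. Genes named are the 3 copies, these lists, and the transcripts most like each copy in pattern, of which only 2 unnamed ones are printed. Loci and spans are from RefSeq (GRCh38.p14).

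Values were taken as log2(CPM + 1). Limma 3.58.1 in R 4.3.3 was fitted to all transcripts with group as the only term, a mean-variance trend and Benjamini-Hochberg adjustment (threshold 0.05). The fit was tested on simulated data with the vehicle spread in both groups. No simulated library stood apart as UT-143 replicate 3 did, so that test does not cover its effect on the calls. A filter of CPM 1 in at least 3 libraries removed 0 transcripts. No counting intervals are given, because the number of reads behind a value is unknown. Alternatives were pseudocounts, scalings, filters, moderation, the replicate block and each library left out. Figures were drawn with Matplotlib 3.10.9. One marker of the cell line is not reported here.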

Additional observations from a re-analysis of the deposited data

How the results depend on the processing

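The differences of the 3 copies, their pairwise ratios and the median mitochondrial mRNA gave 76 values under other settings, of which 75 lay within 1 SD between replicates of the value reported. The exception was MTRNR2L8 under quantile normalization, at -0.22 on the log2 scale. Quantile normalization also put MTRNR2L12 at -0.15 and MTCO1P12 at 0. The count of 75 is no measure of stability. Pseudocounts barely alter values this high, and the replicate block cannot alter a difference in this balanced design. The SD between replicates also includes UT-143 replicate 3, which stood apart. Within that SD, leaving out single libraries changed the sign for MTRNR2L12, MTCO1P12 and the median mitochondrial mRNA. Trimmed mean scaling gave 0.13, 0.21 and 0.13 for MTRNR2L12, MTRNR2L8 and MTCO1P12, and rescaling without the copies and mitochondrial transcripts 0.038, 0.12 and 0.038. Over all transcripts, limma called 456 higher and 732 lower. The count of higher ones was 697 after trimmed mean scaling and 696 after median-of-ratios scaling. After quantile normalization 1409 were higher and 1966 lower. The cause was not tested. With 1 library left out the counts ran from 0 to 3048 higher and from 0 to 5158 lower, and every fit other than that lacking UT-143 replicate 3 gave 0. With the replicate block 0 were called higher and 0 lower (7941 at an unadjusted p under 0.05 in limma), and the differences of the copies did not move. Deviations of same-numbered libraries correlated at -0.41, 0.52 and 0.039, and 2 of the 6 libraries correlated best with their own number. The deviations are from group means that include UT-143 replicate 3, which stood apart. They therefore cannot show whether same-numbered libraries were paired. Depth in reads, and with it counting error, is unknown.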

Other observations

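MTND1P23, a partial copy of the complex I subunit gene MT-ND1, was at 49, 48 and 79 CPM in vehicle replicates 1 to 3 and at 90.0, 82 and 121 CPM in UT-143 replicates 1 to 3. Its groups did not overlap, as in the 13.1% of all transcripts with a UT-143 group entirely above vehicle, and its difference of 0.74 on the log2 scale did not pass the threshold (limma, adjusted p = 0.13). Without UT-143 replicate 3 the difference was 0.58 (limma, adjusted p = 0.19). It was at 1.51% to 2.30% of MT-ND1 in 5 libraries and at 4.16% in UT-143 replicate 3. MTCO2P12, the copy of a cytochrome c oxidase subunit gene, was at 10.0, 9 and 22 CPM in vehicle and at 21, 17 and 18 CPM after UT-143. MTCO3P12, the copy of another subunit gene of that enzyme, was at 15, 11 and 33 CPM in vehicle and at 26, 16 and 28 CPM after UT-143. In both, vehicle replicate 3 was the highest of the 6 libraries.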
